A study of Ogataea parapolymorpha with 2 samples.

Results

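The genes described here are those of the cytoskeleton and the septins in Ogataea parapolymorpha, a thermotolerant yeast that grows on methanol and is called Hansenula polymorpha in the labels. Members were taken from the annotation columns of the read count table by a rule that uses no measured value, and numbered 59 of 5408 features. Of these, 31 carried 1 of 8 COG numbers (orthologous groups with a named function). These were 7 septins (COG5019), 13 genes of actin and myosin (actin and actin-related proteins COG5277, myosin heavy chains COG5022, the fimbrin type COG5069 and the calponin type COG5199), and 11 genes of tubulin and motors (tubulins COG5023, kinesins COG5059 and the dynein heavy chain COG5245). The remaining 28 were placed in the cytoskeleton category by the authors' annotation but carried only a NOG number, an orthologous group without a named function in the files. Genes carry locus tags and no symbols, so a family name below describes the orthologous group and not a known ortholog. The contig column of the table is empty and no genome build is named, so positions are not given.

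Both libraries came from the DL-1 strain, DL1-L in the growth protocol, with a leu- genotype. The culture was grown in YPD, a rich glucose medium, at 37 °C to an OD600 of 1.0. The untreated library was made from the part harvested without the drug, and the caffeine-treated library from the other part after 2 h in 20 mM caffeine. The labels describe no part kept for the same 2 h without the drug, so caffeine and time in culture cannot be told apart. Each of the 2 groups held 1 library, so the differences have no replicates behind them and none was tested. The counted reads numbered 19184978 in the untreated and 17789838 in the caffeine-treated library.

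Yeast cells use these genes to decide where to grow and where to divide. Actin forms the cortical patches that take up membrane and the cables along which myosin motors carry vesicles to the bud, where new wall is laid down. Septins are GTP-binding proteins that assemble into filaments at the bud neck and act there as a scaffold for wall synthesis and division. Tubulin builds the spindle and the cytoplasmic microtubules, on which kinesins and dynein pull and push the chromosomes and the nucleus. In Saccharomyces cerevisiae the cell wall integrity pathway, which is the subject of the series, reports wall stress to the actin cytoskeleton, and caffeine is a common way to engage it.

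After caffeine the 59 genes differed little. On the scale of counts adjusted by trimmed mean of M values (TMM), 57 lay within 2-fold of the untreated library, 1 gene passed 2-fold upward and 1 downward. With library totals or the deposited RPKM 4 members passed 2-fold upward, and with 5 CPM added to both libraries 0 did. The 59 all passed a minimum of 10 CPM, a count divided by the size of its library, in the untreated or the caffeine-treated library. They were among 4861 genes that did. Of those 4861 genes 12.4% lay at least 2-fold apart under TMM, 7.12% higher and 5.27% lower. The 346 genes at least 2-fold higher became 564 with library totals, 553 with the deposited RPKM and 244 with 5 CPM added. The median log2 fold of the members, caffeine-treated over untreated, was 0.16, or 1.12-fold, against 0.01 over all compared genes, and 38 of 59 lay above 0 against 51.1% of all genes. Scaling by library totals in place of TMM adds 0.22 to every log2 fold, so a value between -0.22 and 0 turns positive. On that scale 51 of 59 members and 68.1% of all genes lay above 0.

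A 1.5-fold rule was read beside it. At least 1.5-fold higher (a log2 fold of 0.58) were 10 members, or 16.9%, which is close to the background of 16.5% of all genes. At least 1.5-fold lower were 2 members, or 3.39%, beside 13.0% of all genes, and both carried only a NOG number. With library totals these counts were 17 (28.8%) and 1 (1.69%), beside 26.3% and 7.59% of all genes.

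**Figure D1:**
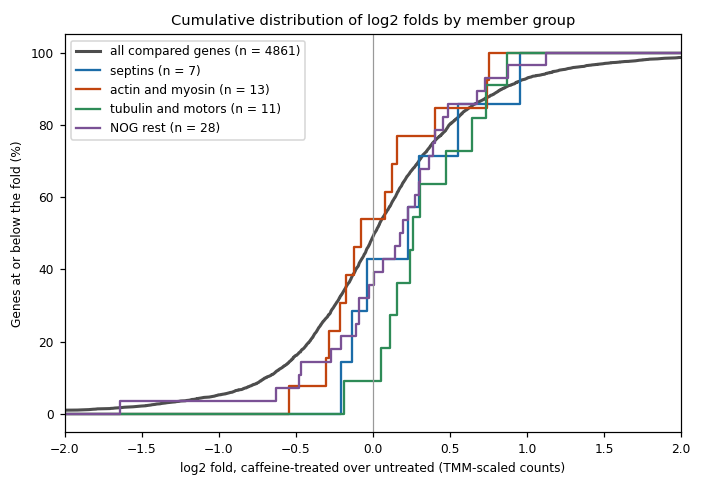
Cumulative share of genes (vertical, %) at or below a log2 fold of caffeine-treated over untreated TMM-scaled counts (horizontal), for all 4861 compared genes and each member group. Tubulin and motor genes lie to the right of all genes, with 10 of 11 above 0, and actin and myosin genes lie close to 0, with 6 of 13 above 0, or 10 of 13 with library totals. Of all compared genes 51.1% lie above 0, or 68.1% with library totals.

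Of the 7 septins, 4 lay above 0 and 3 below under TMM, with a median log2 fold of 0.23, while with library totals all 7 lay above 0. Over all compared genes 51.1% and 68.1% lay above 0 on these scales. No septin passed 2-fold under TMM, and 1, HPODL_02180, did with library totals, at 1.17. Of all 4861 compared genes 602 and 739 lay at least 2-fold apart on these scales. The lowest in abundance, HPODL_02180, had 123 reads in the untreated and 257 in the caffeine-treated library. Its log2 fold of 0.95 was the highest of the family, and the exact 95% interval, which covers counting error only, was 0.64 to 1.28. This gene passed 10 CPM in the caffeine-treated library only, as did 2 of the NOG genes. Its level per length was 7.47 RPKM (the authors' values, scaled by gene length and library total) untreated, at percentile 7.79 of all protein-coding genes, whereas 5 of the other septins lay between 117 and 271 RPKM.

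The abundant septins differed among themselves. HPODL_03107 went from 5520 to 8748 reads, a log2 fold of 0.56 (0.51 to 0.60). HPODL_02125 went from 4571 to 6056 reads, at 0.30 (0.24 to 0.35). HPODL_04631 went from 4578 to 5791 reads, at 0.23 (0.17 to 0.29). These 3 septins stood above the median of all genes by more than their counting error, though within 1.5-fold under TMM. Counting intervals lay wholly above 0 for 4 of the 7 septins, HPODL_02180 included, and for 41.6% of all compared genes. HPODL_02858, the septin with the most untreated reads, went from 5728 to 5624, at -0.14 (-0.19 to -0.08). HPODL_00059 went from 2311 to 2161 reads, at -0.21 (-0.29 to -0.12). HPODL_04188 had 1288 and 1352 reads, at -0.04 (-0.15 to 0.07), an interval that spans 0. The signs of these last 3 septins turn with library totals.

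The make-up of the septin transcripts, which does not depend on the scaling between libraries, differed accordingly. In the untreated library HPODL_03107 made up 21.8% of the summed septin RPKM and HPODL_02125, the leading septin, 24.0%. In the caffeine-treated library HPODL_03107 led with 27.4%, beside 25.1% for HPODL_02125. HPODL_02858 went from 17.4% to 13.6% and HPODL_00059 from 10.3% to 7.67%. Between HPODL_02180 and HPODL_00059, the septins with the highest and the lowest fold, the folds differed by a factor of 2.23 (1.78 to 2.82). The pair was chosen by its folds, so some gap was fixed in advance, and the interval does not allow for this choice. HPODL_02180 also passed the CPM minimum in the caffeine-treated library only. Summed over the family, the scaled septin level was 1356 CPM untreated and 1563 CPM after caffeine, a log2 ratio of 0.21, or 0.42 with library totals.

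**Figure D2:**
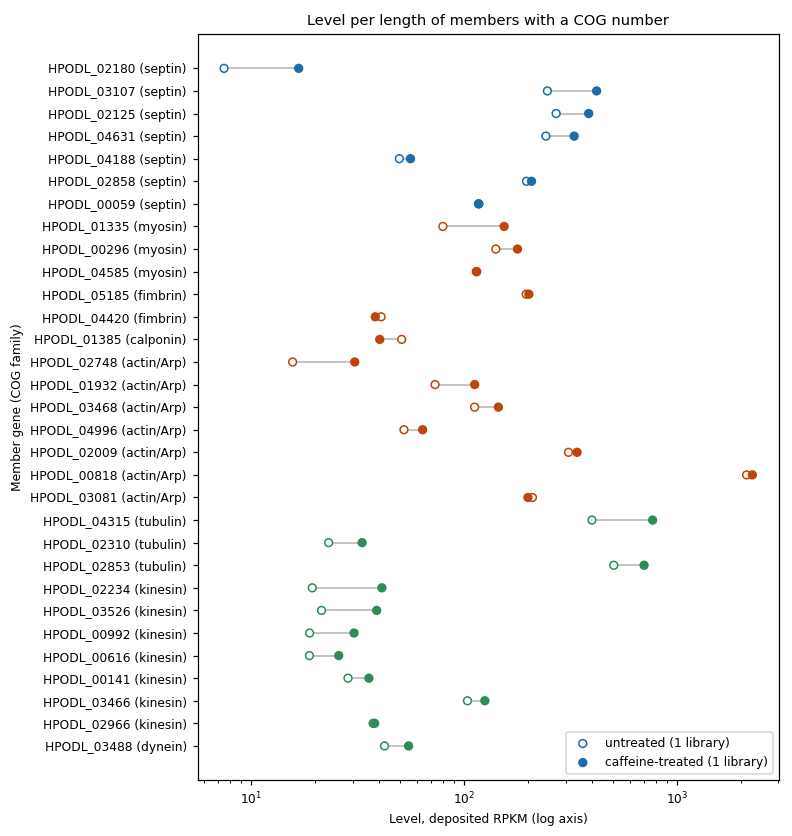
Level per length (horizontal, deposited RPKM on a log axis) of each member with a COG number in the untreated (open) and caffeine-treated (filled) library, 1 library each. RPKM follows library totals, so a gene near a log2 fold of -0.22 under TMM shows no gap here. The actin-family gene HPODL_00818 stands far to the right at 2126 and 2262 RPKM, and the septin HPODL_02180 farthest to the left at 7.47 and 16.8 RPKM.

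Actin and actin-related genes all lay within 2-fold under TMM, from -0.28 to 0.76, as did 4259 of the 4861 compared genes. Of the 7 genes of COG5277, which holds actin itself, the actin-related proteins that nucleate branched filaments and those found in chromatin complexes, 4 lay above 0 under TMM and 6 with library totals. Over all compared genes 51.1% and 68.1% did. HPODL_00818 held 73.3% of the family's summed untreated RPKM and 71.7% after caffeine. It had 38915 and 38576 reads, a log2 fold of -0.12 (-0.14 to -0.10), which turns positive with library totals. It ranked 125th by RPKM among protein-coding genes in the untreated library and 117th in the caffeine-treated library.

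The other 6 actin-family genes lay between 15.7 and 309.6 RPKM in the untreated library, beside 2126 RPKM for HPODL_00818. The scarcest, HPODL_02748, went from 288 to 525 reads, at 0.76 (0.55 to 0.97), and alone of the family passed 1.5-fold under TMM. HPODL_01932 went from 1643 to 2347 reads, at 0.41 (0.31 to 0.50). HPODL_03468 went from 2667 to 3210 reads, at 0.16 (0.08 to 0.23). Below the abundant actin-family gene stood HPODL_03081, from 3971 to 3522 reads at -0.28 (-0.35 to -0.22), which stays negative with library totals. HPODL_02009, the second in abundance, had 5364 and 5487 reads at -0.08 (-0.13 to -0.02), and HPODL_04996 had 1053 and 1200 reads at 0.08 (-0.04 to 0.20).

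Myosin heavy chains, the motors that walk along actin filaments, differed from each other. HPODL_01335 went from 7953 to 14310 reads, a log2 fold of 0.74 (0.70 to 0.78), or 1.67-fold. HPODL_00296 went from 11999 to 14081 reads, at 0.12 (0.09 to 0.16). HPODL_04585 went from 7897 to 7363 reads, at -0.21 (-0.26 to -0.16), which becomes positive with library totals. HPODL_01335 and HPODL_04585 had nearly the same number of reads in the untreated library, a ratio of 1.01, and in the caffeine-treated library the ratio was 1.94. Their folds thus differed by a factor of 1.93 (1.85 to 2.01), whatever the scaling. These were the highest and the lowest fold of the 3 myosins, a choice the interval does not allow for. Per length, HPODL_01335 was the least abundant of the 3 myosins untreated, at 79.6 RPKM beside 114 and 141, and lay between the other 2 after caffeine, at 154 beside 115 and 178.

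The genes of actin-bundling and actin-binding families lay on the lower side. Both genes of the fimbrin type, which crosslink actin filaments into bundles, were below 0 under TMM. So were 2379 of the 4861 compared genes. HPODL_05185 went from 6579 to 6296 reads, at -0.17 (-0.22 to -0.12), which turns positive with library totals, and HPODL_04420 from 1469 to 1282 reads, at -0.31 (-0.41 to -0.20), which does not. The calponin-type gene HPODL_01385, from a family of small actin-binding proteins, went from 414 to 306 reads. Its log2 fold of -0.55 (-0.76 to -0.33) was the lowest of the 31 genes with a COG number. The 13 genes of actin and myosin together had a median of -0.08, or 0.14 with library totals, and 11 of them lay within 1.5-fold under TMM. At least 1.5-fold higher were 2 (15.4%) and lower 0, beside 16.5% and 13.0% of all compared genes.

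**Figure D3:**
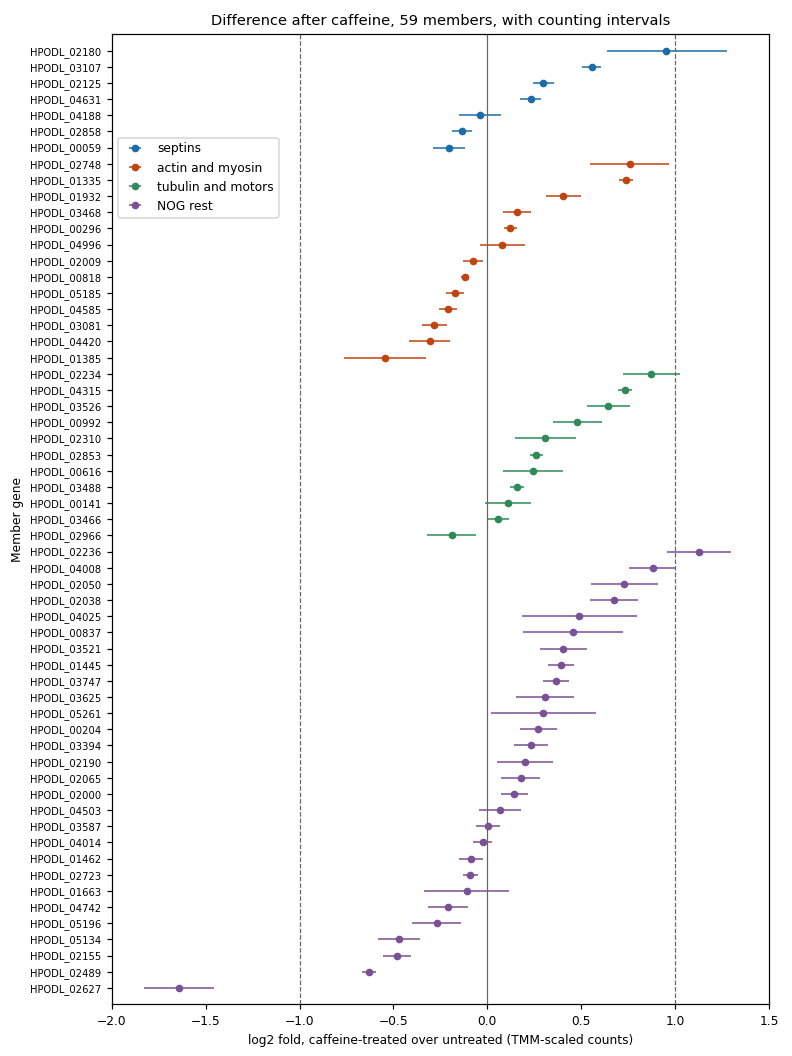
Log2 fold of caffeine-treated over untreated TMM-scaled counts (horizontal) for each of the 59 members, grouped and ordered by value, with exact 95% intervals that cover counting error only. Dashed lines mark 2-fold: the NOG gene HPODL_02236 lies beyond the upper line at 1.13 with an interval that reaches across it, and HPODL_02627 beyond the lower line at -1.64.

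Tubulin and motor genes lay mostly above 0. Of 11 genes 10 were above 0 under TMM and 11 with library totals, beside 51.1% and 68.1% of all genes. At least 1.5-fold higher were 3 (27.3%), or 4 (36.4%) with library totals, beside 16.5% and 26.3% of all genes. The median log2 fold of the 11 genes was 0.26. All 3 tubulins, the subunits of microtubules and relatives that seed them, had counting intervals wholly above 0, as did 41.6% of all compared genes. HPODL_04315 went from 8959 to 16076 reads, at 0.73 (0.70 to 0.77), or 1.66-fold. HPODL_02853 went from 11346 to 14656 reads, at 0.26 (0.22 to 0.30). The scarce tubulin HPODL_02310 went from 541 to 723 reads, at 0.31 (0.15 to 0.47).

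The order of the 2 abundant tubulin genes differed between the libraries. HPODL_02853 had 54.5% of the summed tubulin RPKM untreated and HPODL_04315 43.0%, while after caffeine HPODL_04315 had 51.2% and HPODL_02853 46.6%. In raw reads HPODL_04315 stood at 0.79 of HPODL_02853 untreated and at 1.10 of it after caffeine. The folds differed by a factor of 1.39 (1.34 to 1.44), which no scaling alters. HPODL_04315 and HPODL_02853 also had the highest and the lowest tubulin fold, a choice the interval does not allow for. HPODL_02310 had a small part, 2.50% and 2.21%. Which of these genes encode alpha, beta or gamma tubulin is not annotated in the files.

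Kinesins, motors that walk along microtubules, were scarce, with a median of 21.4 RPKM over 7 genes untreated beside 52.4 RPKM over all protein-coding genes. Of the 7 kinesins 6 lay above 0 under TMM and 7 with library totals, beside 51.1% and 68.1% of all compared genes. HPODL_02234 went from 548 to 1082 reads, at 0.87 (0.72 to 1.02). HPODL_03526 went from 1002 to 1690 reads, at 0.64 (0.53 to 0.76). HPODL_00992 went from 810 to 1217 reads, at 0.48 (0.35 to 0.61). These 3 kinesins were among the scarcest 4 of the family per length before caffeine, at 18.8 to 21.4 RPKM, though the untreated count also enters the fold.

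The other kinesins differed less. HPODL_00616 went from 590 to 753 reads, at 0.24 (0.09 to 0.40). HPODL_00141 had 999 and 1164 reads, at 0.11 (-0.01 to 0.23). HPODL_03466, the most abundant kinesin with 41.8% of the family's summed RPKM untreated and 37.4% after caffeine, had 4730 and 5303 reads, at 0.06, with an interval from just below 0 to 0.11. HPODL_02966 was the single kinesin below 0, from 998 to 944 reads at -0.19 (-0.32 to -0.06), which turns positive with library totals. HPODL_02234 and HPODL_02966, the ends of the family, differed by a factor of 2.09 (1.82 to 2.40). As this pair was chosen by its folds, some gap was fixed in advance. The dynein heavy chain HPODL_03488, the motor that pulls the nucleus toward the bud in Saccharomyces cerevisiae, spans 12059 bases and is the second longest gene compared. It went from 9629 to 11590 reads, at 0.16 (0.12 to 0.20), with 42.4 and 55.0 RPKM.

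**Figure D4:**
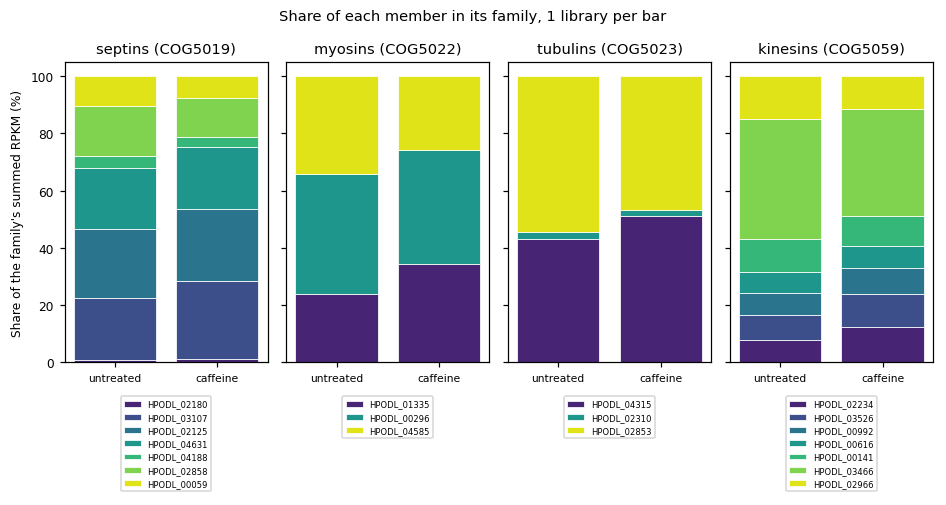
Share of each gene in the summed deposited RPKM of its family (vertical, %) in the untreated and the caffeine-treated library, 1 library per bar, for septins, myosins, tubulins and kinesins. The myosin HPODL_01335 goes from 23.8% to 34.5%, and the tubulin HPODL_04315 from 43.0% to 51.2%.

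The 28 genes with only a NOG number had a median of 0.19. Above 0 were 18 (64.3%) under TMM and 23 (82.1%) with library totals, beside 51.1% and 68.1% of all compared genes. The range of these 28 genes, from -1.64 to 1.13, was the widest of the 4 groups, but theirs was also the largest group. Their lower and upper quartiles were -0.10 and 0.39, beside -0.09 and 0.43 for the septins. Of the 24 NOG numbers, NOG00325 held 4 genes and NOG06424 held 2.

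All 4 genes of NOG00325 lay above 0, beside 51.1% of all compared genes. At least 1.5-fold higher were 3 of them, or 4 with library totals, beside 16.5% and 26.3% of all compared genes. HPODL_02236 went from 403 to 949 reads, a log2 fold of 1.13 (0.96 to 1.30), and was the only member past 2-fold upward under TMM, a call lost with 5 CPM added to both libraries, at 0.98. HPODL_04008 went from 804 to 1596 reads, at 0.88 (0.76 to 1.00). HPODL_02038 went from 789 to 1358 reads, at 0.67 (0.55 to 0.80), and its span overlaps that of a neighbouring gene, so that reads could be shared. HPODL_01445, chosen after its value was seen because it completes this NOG, went from 2767 to 3915 reads, at 0.39 (0.32 to 0.46). The order by fold runs opposite to the untreated level for the extremes, since HPODL_02236 was the scarcest at 10.2 RPKM and HPODL_01445 the most abundant at 94.3 RPKM. The untreated count also enters the fold, so the fold and this level are not independent. The summed level of the 4 genes was 268 CPM untreated and 407 CPM after caffeine.

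HPODL_02050 (NOG221180) followed, from 402 to 719 reads at 0.73 (0.55 to 0.91), and HPODL_04025 (NOG06424) from 150 to 227 reads at 0.49 (0.18 to 0.80). HPODL_04025 passed 10 CPM in the caffeine-treated library only. The other gene of NOG06424, HPODL_04014, chosen after its value was seen, had 6318 and 6697 reads at -0.03 (-0.07 to 0.02).

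At the lower end stood HPODL_02627 (NOG225181), with 919 reads untreated and 318 after caffeine. Its log2 fold was -1.64 (-1.83 to -1.45), or 3.12-fold lower, at percentile 1.71 of all compared genes. HPODL_02489 (NOG15499), a long gene of 4428 bases, went from 13784 to 9613 reads, at -0.63 (-0.67 to -0.59), or 1.55-fold lower, and within 1.5-fold with library totals. HPODL_02155 (NOG23112) went from 3409 to 2635 reads, at -0.48 (-0.55 to -0.41), and HPODL_05134 (NOG10135) from 1489 to 1161 reads, at -0.47 (-0.58 to -0.36). These 4 genes stayed below 0 with library totals.

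Of the 5 most abundant NOG genes per length, HPODL_02489, at 169 and 127 RPKM, is the one given above at -0.63, and the other 4 lay within 1.5-fold. HPODL_02723 (NOG38684) had 1523 and 1643 RPKM and a log2 fold of -0.09 (-0.13 to -0.05). HPODL_04742 (NOG70831) had 473 and 465 RPKM and stood at -0.21 (-0.32 to -0.10). HPODL_05196 (NOG67567) had 196 and 187 RPKM and stood at -0.27 (-0.40 to -0.14). HPODL_01462 (NOG04394) had 126 and 138 RPKM and stood at -0.09 (-0.15 to -0.02). Of these 4 genes, all but HPODL_05196 turn positive with library totals. The gene models of HPODL_02723, HPODL_04742 and HPODL_05196 are short, 528, 482 and 450 bases. The deposited RPKM divides by a length shorter than the span, for most genes by about 177 bases (untreated) or 172 bases (after caffeine). For HPODL_04742 the length was shortened by more than that. The levels of these short genes are thus set high relative to long genes.

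Folds in these libraries also varied with the level of a gene. When all compared genes were divided into 3 equal classes by mean scaled CPM, their median log2 fold was 0.17 in the lowest class, 0.05 in the middle and -0.14 in the highest. The 14, 19 and 26 members in these classes had medians of 0.31, 0.18 and 0.03. At least 1.5-fold higher were 4 of 14, 4 of 19 and 2 of 26 members, beside 25.8%, 14.6% and 9.25% of all genes. The part of gene level in the member folds was not tested.

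**Figure D5:**
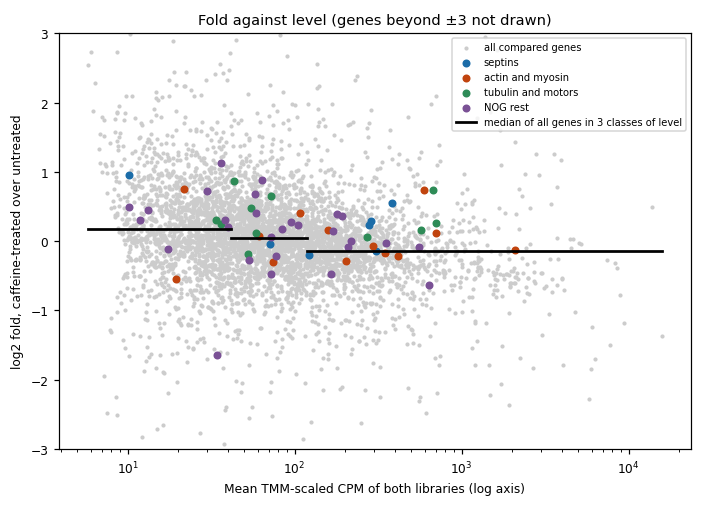
Log2 fold of caffeine-treated over untreated counts (vertical) against the mean TMM-scaled CPM of both libraries (horizontal, log axis), for all compared genes (grey) and the members (coloured). Black lines give the median of all genes in each of 3 classes of level, 0.17, 0.05 and -0.14. The myosin HPODL_01335 and the tubulin HPODL_04315 lie high on the right, at 0.74 and 0.73.

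Set against the abundant actin-family gene HPODL_00818, which removes the scaling between libraries, 44 of the other 58 members (75.9%) had the higher fold. The same held for 61.1% of all other compared genes. The median of the members relative to HPODL_00818 was 0.29 on the log2 scale, and that of all other genes 0.13. Relative to this gene 13 members were at least 1.5-fold higher (22.4%) and 1, HPODL_02627, at least 1.5-fold lower (1.72%), beside 22.0% and 9.69% of all other compared genes. The share of members at least 1.5-fold higher was thus near that of all genes, while the share with the higher fold was larger.

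Genes that fold, regulate or bind the cytoskeleton were read from a separate list of orthologous groups and the remaining cytoskeleton category. Of 31 such genes 0 passed 2-fold under TMM, beside 12.4% of all compared genes. At least 1.5-fold lower were 2 (6.45%) and higher 0, beside 13.0% and 16.5% of all genes. The median log2 fold was -0.12, with 15 (48.4%) above 0, beside 51.1% of all genes. With library totals 22 (71.0%) lay above 0, beside 68.1% of all genes. On that scale 4 (12.9%) were at least 1.5-fold higher and 0 lower, beside 26.3% and 7.59% of all genes. The 6 genes with COG0459, a group that holds the chaperonin complex folding actin and tubulin, ranged from -0.44 (HPODL_04238, 5512 and 4370 reads) to 0.54 (HPODL_04672, 526 and 825 reads). HPODL_04672 spans 5082 bases and has no category letter, while the others span 1581 to 1668 bases, so it may not be a chaperonin subunit. Without it the highest is HPODL_02475, at 0.14. The median of the 6 was -0.15, which turns positive with library totals. The 2 genes of the beta prefoldin type (COG1382), which hand unfolded actin and tubulin to the chaperonin, stood at 0.41 (HPODL_04383) and 0.38 (HPODL_01279), and the alpha-type gene HPODL_00168 (COG1730) at -0.12.

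Small GTPases of COG1100, a group of Ras-type switches that includes regulators of actin, held both of the genes past 1.5-fold under TMM. HPODL_02947 went from 1568 to 1056 reads, at -0.68 (-0.79 to -0.57), and HPODL_00707 from 1205 to 835 reads, at -0.64 (-0.77 to -0.51). The highest of the 8, HPODL_02216, stood at 0.51. The IQGAP-type gene HPODL_01826 (COG5261), from a family of division ring proteins, had 6159 and 7017 reads at 0.08 (0.03 to 0.13).

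The other genes of the list lay within 1.5-fold on both scales. Calmodulin and EF-hand genes (COG5126), which include light chains of myosin, ranged from -0.37 (HPODL_01424) to 0.17 (HPODL_01653) over 6 genes. The EB1-type microtubule end protein HPODL_00963 (COG5217) stood at 0.16, and the tubulin folding cofactor HPODL_02046 (COG5234) at 0.03. The 4 genes of COG5184, a group with the RCC1-type repeat, ranged from -0.17 (HPODL_00323) to 0.21 (HPODL_04649). The CAP-Gly group COG5244 matched 0 genes.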

How the data were processed

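For each of the 2 libraries the authors deposited raw counts, RPKM, and counts scaled by RLE and by TMM. The aligner was Bowtie2, per the submitters' processing notes. Its version and the counting tool, strand setting, build and annotation were not given in the sources used here. In the deposited RLE and TMM tables, a scaled signal, every value was the count times 1 constant per library. The deposited RPKM used lengths about 177 and 172 bases shorter than the listed ones. This held for 90.1% (untreated) and 90.7% (caffeine-treated) of the genes with more than 500 reads. The 83 features that are not protein coding, by RefSeq assembly Hansenula_2, had 0 reads.

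Counts were scaled by TMM (edgeR 4.0.16, R 4.3.3), and genes with 10 CPM in either library were kept. Folds are log2 ratios of scaled counts, with exact 95% Clopper-Pearson intervals; those between 2 genes are exact conditional intervals. They cover counting error only. Each pair of genes joined the highest and the lowest fold of its family, and its interval does not allow for that choice. The calculation was tested on simulated data. Members and lists were chosen with earlier results of these data known. Named were all members with a COG number, the 5 highest, 5 lowest and 5 most abundant NOG genes, and the extremes of each further group; 1 of these groups is not reported here. Reads shared by near-identical genes were not checked. COG functions come from general knowledge. A summary sheet was not used, and promoter and protein sequences were not analysed here.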

Additional observations from a re-analysis of the deposited data

How the results depend on the processing

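Scaling by library totals raised the member median from 0.16 to 0.38, the medians of septins to 0.45, actin and myosin to 0.14, tubulin and motors to 0.48 and NOG genes to 0.41, and that of all genes to 0.23. It put 564 genes at least 2-fold higher in place of 346 (76.3% of those past 2-fold in place of 57.5%), and 4 members in place of 1. At least 1.5-fold it gave 17 members higher and 1 lower, in place of 10 and 2. The deposited RPKM, which also follow library totals, gave medians of 0.38 for members, 0.44 for septins, 0.13 for actin and myosin, 0.47 for tubulin and motors, 0.40 for NOG genes and 0.22 for all genes, with 553 genes and 4 members at least 2-fold higher and 17 members higher and 1 lower by 1.5-fold. With 5 CPM added to both libraries 244 genes and 0 members were at least 2-fold higher. RLE or upper-quartile factors and no filter on low counts kept all member counts and medians near the TMM values, and no sign of the 44 named members changed under them, while 11 signs changed with library totals.

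No paired analysis was possible because each group holds 1 library, and no library was left out. Member counts ran from 123 to 38915 reads, and the counting intervals reached from 0.02 to 0.32 log2 units to either side. Variation between cultures is not measured.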

Other observations

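Gene spans that are not a multiple of 3 bases, which cannot be a single run of whole codons, were listed for 12 of 59 members (20.3%) and for 6.09% of all compared genes. They include all 3 tubulins, the actin-family gene HPODL_00818, the septins HPODL_02180, HPODL_03107 and HPODL_04631, the myosin HPODL_01335 and the dynein HPODL_03488. The 12 members had a median log2 fold of 0.28 and the other 47 one of 0.12, whereas over all compared genes the 296 with such spans had -0.12 and the rest 0.02. For all 12 members with such spans the deposited RPKM used a length shorter than the span by more than the usual 177 bases (untreated). Their RPKM thus does not rest on the whole span.

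The kinesin HPODL_02234 at 0.87 and the NOG00325 gene HPODL_02236 at 1.13 lie with 1 gene between them, HPODL_02235, which stood at -0.38. The kinesin HPODL_03466 at 0.06 and the actin-family gene HPODL_03468 at 0.16 likewise have 1 gene between them, HPODL_03467, at -0.70.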
